A study of Homo sapiens with 26 samples.

Results

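Ribosome biogenesis genes encode the machinery that makes ribosomes in the nucleolus. The members were the 53 rows of the deposited gene table whose gene name was in a list of rRNA transcription and ribosome assembly factors, out of 58735 rows in all. They were followed across 26 libraries of polyadenylated RNA from 3 established human cancer cell lines, the colorectal lines HCT116 and DLD1 and the breast line CAL51. The study asked how cell and nuclear size relate to gene expression once ploidy is held equal. HCT116 gave 3 large tetraploid (4N) clones, 3 small 4N clones, 2 diploid (2N) clones and 1 parental library. DLD1 gave 4 large 4N clones, 3 small 4N clones, 2 2N clones and 1 parental library, and CAL51 gave 3 large 4N clones, 1 small 4N clone, 2 2N clones and 1 parental library.

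The 4N cells of HCT116 and CAL51 arose from a failed cell division after 20 hr in 75 µM blebbistatin, an inhibitor of myosin II. Those of DLD1 arose after 20 hr in 1.5 µg/mL dihydrocytochalasin B, an inhibitor of actin. Both drugs were washed out, cells recovered for 48 hr, and each clone was then grown from a single cell, so that line and drug cannot be told apart between DLD1 and the other lines. No drug is labelled for the 2N and parental libraries. Each library is 1 clone or 1 parental culture, and every p-value rests on how far such clones vary within their class. In bulk RNA, less RNA per cell and a different mix of cells cannot be told apart.

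Ribosome assembly starts when RNA polymerase I copies the rRNA genes into a long precursor. Small nucleolar ribonucleoproteins (snoRNPs) modify that precursor, those of the box C/D class by methylating riboses and those of the box H/ACA class by converting uridines to pseudouridines. A large processome then folds and cuts the RNA of the small subunit, while a separate set of factors matures the RNA of the large subunit. The transcription factor MYC is known to switch on many of these genes, and a large nucleolus is a long-known mark of fast-growing tumour cells.

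The 53 genes were divided into 6 roles. RNA polymerase I transcription had 6 genes, MYBBP1A, UBTF, RRN3, POLR1A, POLR1B and POLR1C. The box C/D snoRNP had 3, FBL, NOP56 and NOP58, and the box H/ACA snoRNP had 4, NOP10, NHP2, DKC1 and GAR1. Nucleolar scaffolds and chaperones had 3, NPM1, NCL and NOLC1. The small subunit had 17, DDX21, RRP9, NOB1, NOP14, WDR43, TSR1, NAT10, BYSL, UTP4, LTV1, WDR75, RRP12, HEATR1, WDR3, UTP20, UTP15 and DDX10. The large subunit had 20, BOP1, MRTO4, GNL3, RRS1, PES1, EBNA1BP2, DDX56, RRP1B, DDX18, NIP7, SDAD1, NOP16, GNL2, GNL3L, BRIX1, URB2, NLE1, WDR12, PPAN and NOP2.

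Values were in FPKM, reads divided by the length of the gene and by a scale that is common to all genes of a library. A gene was tested when it reached 1 FPKM in at least 3 libraries, which 52 of the 53 members and 14835 genes in all did. The exception was NOP2, a methyltransferase of the large subunit rRNA, which was listed at 0.165 to 0.430 FPKM, or 24 to 67 reads. Of its exonic bases, 54.4% are shared with the overlapping gene AC006064.6 on the same strand, and its value is uncertain for that reason. PPAN (59.8% of exonic bases shared with same-strand neighbours), LTV1 (34.8%) and RRS1 (11.4%) are uncertain in the same way, while 41 members shared none. HEATR1 and EBNA1BP2 overlap genes on the opposite strand with 23.1% and 18.8% of their exonic bases, and whether reads were counted by strand is not given in the sources used here. The mean FPKM of the tested members ran between 4.51 for PPAN and 381 for NPM1, with a median of 27.1, against a median of 4.89 over all tested genes. The lowest value of any tested member rested on 210 reads.

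Reads assigned to genes ranged from 23.5 to 44.5 M per library, and mitochondrial genes took 2.42 to 10.1% of them. Epithelial markers were expressed in the colorectal lines, with a summed 1179 to 2653 FPKM in HCT116 and 2008 to 2721 FPKM in DLD1. Of 7 colon markers, 5 stayed under 1 FPKM in every HCT116 library, VIL1 and CDH17 among them, and the list summed to 4.77 to 9.32 FPKM there, against 43.8 to 125 FPKM in DLD1. ESR1 and PGR stayed under 1 FPKM in every library, CAL51 included, which its label gives as triple negative. ERBB2, the third receptor gene of that list, did not. The list of 3 summed to 14.95 to 22.82 FPKM in CAL51, 10.37 to 14.75 FPKM in HCT116 and 15.68 to 19 FPKM in DLD1. Markers of blood, endothelial and stromal cells summed to at most 5.52 FPKM in HCT116, 1.75 FPKM in DLD1 and 45.7 FPKM in CAL51.

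The joint level of the module, the mean log2(FPKM + 1) of the 52 tested genes, differed between clones of HCT116 far more than between clones of DLD1. In HCT116 it was 4.90, 4.58 and 5.43 in large clones 1 to 3, against 4.15, 4.42 and 4.63 in small clones 1 to 3. The 2N clones of HCT116 stood at 4.51 and 4.49 and the parental library at 4.57. Large clone 3 was therefore the highest HCT116 library and small clone 1 the lowest, and large clone 2 lay below small clone 3. In DLD1 the level was 5.01, 4.96, 5.00 and 4.99 in large clones, 4.91, 5.01 and 4.89 in small clones, 5.11 and 4.97 in 2N clones and 5.01 in the parental library. In CAL51 it was 4.75, 4.56 and 4.53 in large clones, 4.95 in the small clone, 4.83 and 4.52 in 2N clones and 4.5 in the parental library. The SD between clones, pooled over classes, was 0.31 for HCT116, 0.057 for DLD1 and 0.16 for CAL51.

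**Figure D1:**
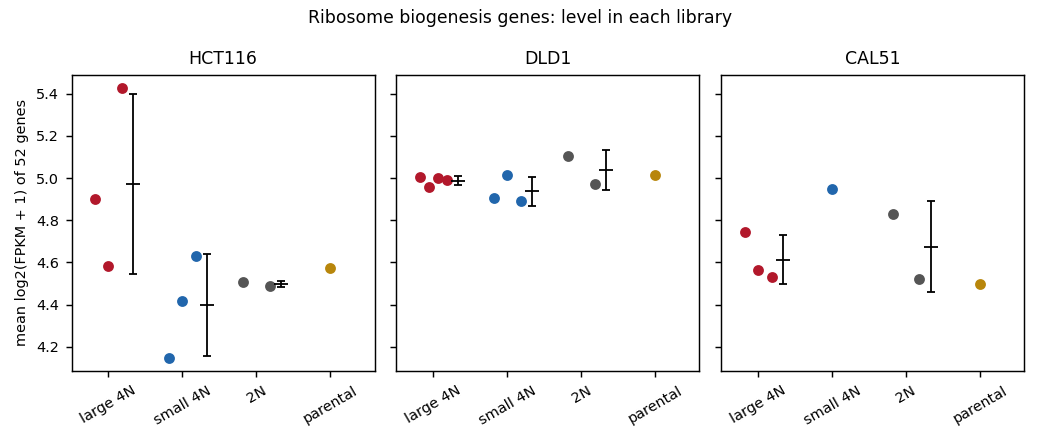
Mean log2(FPKM + 1) of the 52 tested genes (vertical axis) in each library, by line and class; points are libraries and bars are the class mean ± SD where a class has more than 1 library. HCT116 libraries spread between 4.15 and 5.43, while all 10 DLD1 libraries lie between 4.89 and 5.11.

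Single genes showed the same pattern. The median span of a member between its highest and lowest library was 1.40 on the log2 scale in HCT116, where the median over all tested genes was 0.70. In DLD1 the median member spanned 0.38, less than the 0.52 of all genes, and in CAL51 0.69, close to the 0.67 of all genes. Large clone 3 was the highest of the 9 HCT116 libraries for 50 of the 52 members, against 24% of all genes. FBL and BOP1 were highest in other clones. Small clone 1 was the lowest of the 9 for 39 members, against 14% of all genes. Among the 10 DLD1 libraries 2N clone 1 was the highest for 24 members as deposited (13.2% of all genes). With values scaled to a fixed sum per library its module level, 6.842, was no longer the highest. Large clones 2, 3 and 4 (6.857, 6.875 and 6.93) and small clone 2 (6.863) stood above it. Among the 7 CAL51 libraries the single small clone was the highest for 24 members (14.9% of all genes).

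Large and small 4N clones of 1 line share their ploidy and differ in size class. Ribosome biogenesis genes stood higher in the large HCT116 clones in nearly every role, yet only 1 of 52 passed the test across all genes. That gene was TSR1, a factor needed for late maturation of the small subunit, which rose in large clones by limma with Benjamini-Hochberg adjustment (adjusted p = 0.0498). Of all tested genes, 0.297% were called higher and 0.148% lower. Of the 52 members, 51 had a positive difference, with a median of 0.59, while the median over all tested genes was -0.0016 with 48.3% positive. Every large clone exceeded every small clone for 20 members (38.5%), against 6.85% of all tested genes, and no member had every large clone below every small one, against 7.5%. Before adjustment 42 members, all higher, were below a p of 0.05, against 1197 higher and 1084 lower of the 14835 tested genes.

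TSR1 had 28.7, 24.1 and 38.4 FPKM in the large HCT116 clones, against 14.0, 18.3 and 21.1 FPKM in the small ones. No large clone overlapped a small one, and the 2N clones (19.0 and 19.9 FPKM) and the parental library (19.4 FPKM) fell among the small clones. The log2 difference was 0.73 ± 0.16 (SE). The next members by the test statistic did not pass. BOP1, a subunit of the PeBoW complex that processes large-subunit rRNA, had 140, 81.0 and 118 FPKM in large clones, against 42.3, 64.0 and 55.4 FPKM in small clones. Its difference of 1.04 ± 0.24 was the widest of all members, at an adjusted p of 0.0615. DDX18, an RNA helicase of the large subunit, had 26.8, 16.1 and 33.8 FPKM in large clones, against 12.7, 13.6 and 15.3 FPKM in small clones (0.78 ± 0.19, adjusted p = 0.0659). HEATR1, a processome component also needed for polymerase I transcription, had 12.1, 12.1 and 19.2 FPKM in large clones, against 7.58, 9.11 and 9.62 FPKM in small clones (0.64 ± 0.16, adjusted p = 0.0852). For these 4 genes the large and small clones did not overlap, with large clone 2 the nearest to the small clones for DDX18, TSR1 and BOP1. NOP56 (0.72 ± 0.19, adjusted p = 0.0968) and PES1 (0.76 ± 0.20, adjusted p = 0.1) completed the leading 6, and PES1 overlapped through large clone 2 at 44.8 FPKM and small clone 3 at 45.9 FPKM.

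**Figure D2:**
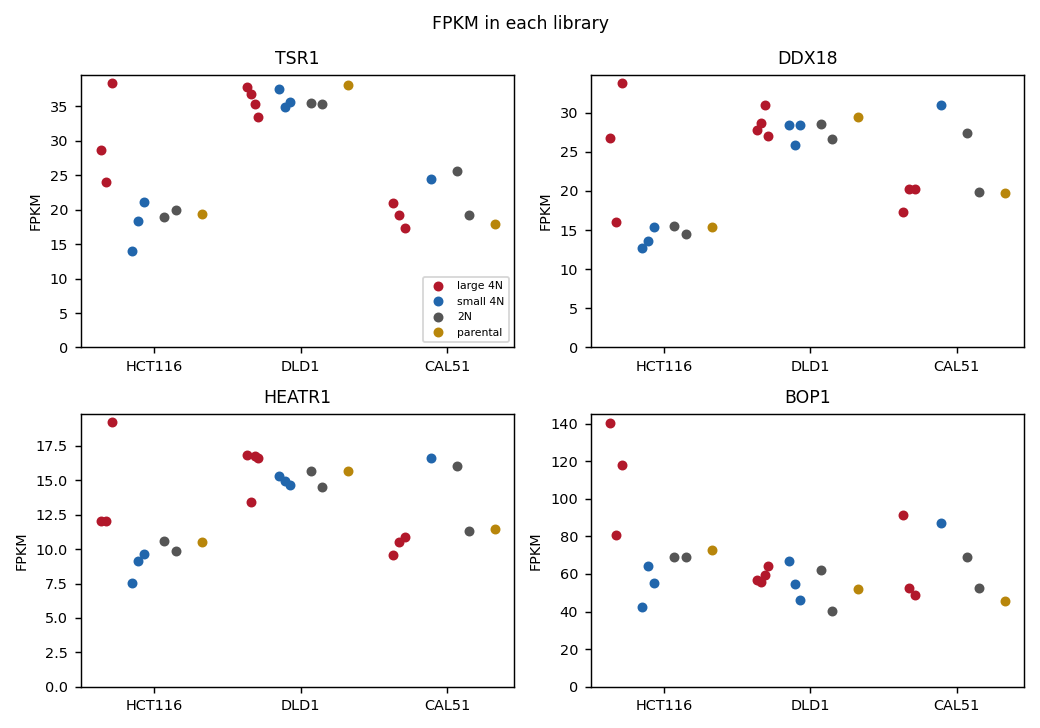
FPKM (vertical axis, from 0) of TSR1, DDX18, HEATR1 and BOP1 in each library, by line and class; each point is 1 library. In HCT116 the large clones lie above the small ones for all 4 genes, whereas in CAL51 the single small clone lies above the large clones for TSR1, DDX18 and HEATR1.

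Median differences by role lay close together in HCT116. They were 0.49 for the 6 polymerase I genes, 0.60 for the 3 box C/D genes, 0.55 for the 4 box H/ACA genes, 0.50 for the 3 scaffolds, 0.64 for the 17 small-subunit genes and 0.64 for the 19 tested large-subunit genes. All small-subunit differences were positive, between 0.28 and 0.87. The smallest differences were those of UBTF, the factor that opens rRNA gene chromatin, at 0.08, and GNL3, the nucleolar GTPase nucleostemin, at -0.09, the single negative value. GNL3 had 30.3, 27.1 and 93.2 FPKM in large clones, against 32.2, 51.2 and 56.5 FPKM in small clones and 57.9 and 52.7 FPKM in 2N clones. Large clones 1 and 2 were thus its lowest HCT116 libraries and large clone 3 its highest.

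The count of called genes depended on single clones. Leaving out large clone 2 raised the count to 29 of 52, and leaving out small clone 3 raised it to 3. Without large clone 1, large clone 3 or small clone 1 it was 0, with medians of 0.63, 0.36 and 0.48. Without both large clone 3 and small clone 1 the count was 0 and the median 0.25. Because all lines share 1 estimate of the spread, leaving out a clone elsewhere also moved a value this near the threshold: over 22 clones left out in turn the count was 0 in 15 cases, and it was 2 without CAL51 large clone 1. TSR1 ranged between adjusted p values of 0.00747 and 0.244 over those 22 fits and between 0.0197 and 0.509 over the other alternatives. MYC and epithelial markers ran with the module only in part of these libraries. MYC had 243, 202 and 261 FPKM in large clones, against 31.0, 183 and 172 FPKM in small clones, 128 and 145 FPKM in 2N clones and 188 FPKM in the parental library. Large clone 3 held the most MYC and small clone 1 the least, the same clones that were highest and lowest for the module. Small clone 2 held more MYC than either 2N clone, at a lower module level. The difference in MYC itself, 1.22 ± 0.47, did not pass (adjusted p = 0.224). MXD4, which encodes a repressor that competes with MYC for its partner MAX, ran the other way, with 5.29, 9.49 and 3.72 FPKM in large clones, against 16.0, 9.44 and 10.5 FPKM in small clones (-0.90 ± 0.34, adjusted p = 0.212). Of the 11 tested genes of the MYC network, 5 had positive differences, with a median of -0.02 and none called. The 7 epithelial markers all had positive differences between large and small clones, with a median of 0.36 and none called, and all were also higher in large than in 2N clones, with a median of 0.79 and none called. They summed to 1988, 1808 and 2653 FPKM in large clones, against 1660, 1848 and 1282 FPKM in small clones and 1205 and 1179 FPKM in 2N clones. Large clone 3 was the highest here too, while small clone 1 was not the lowest. Small clone 3, the highest small clone for the module, had the lowest sum of the small clones. The 2N clones had lower sums than small clones 1 and 2 but a higher module level. The part of MYC, MXD4 and these markers in the module's values was not tested.

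**Figure D3:**
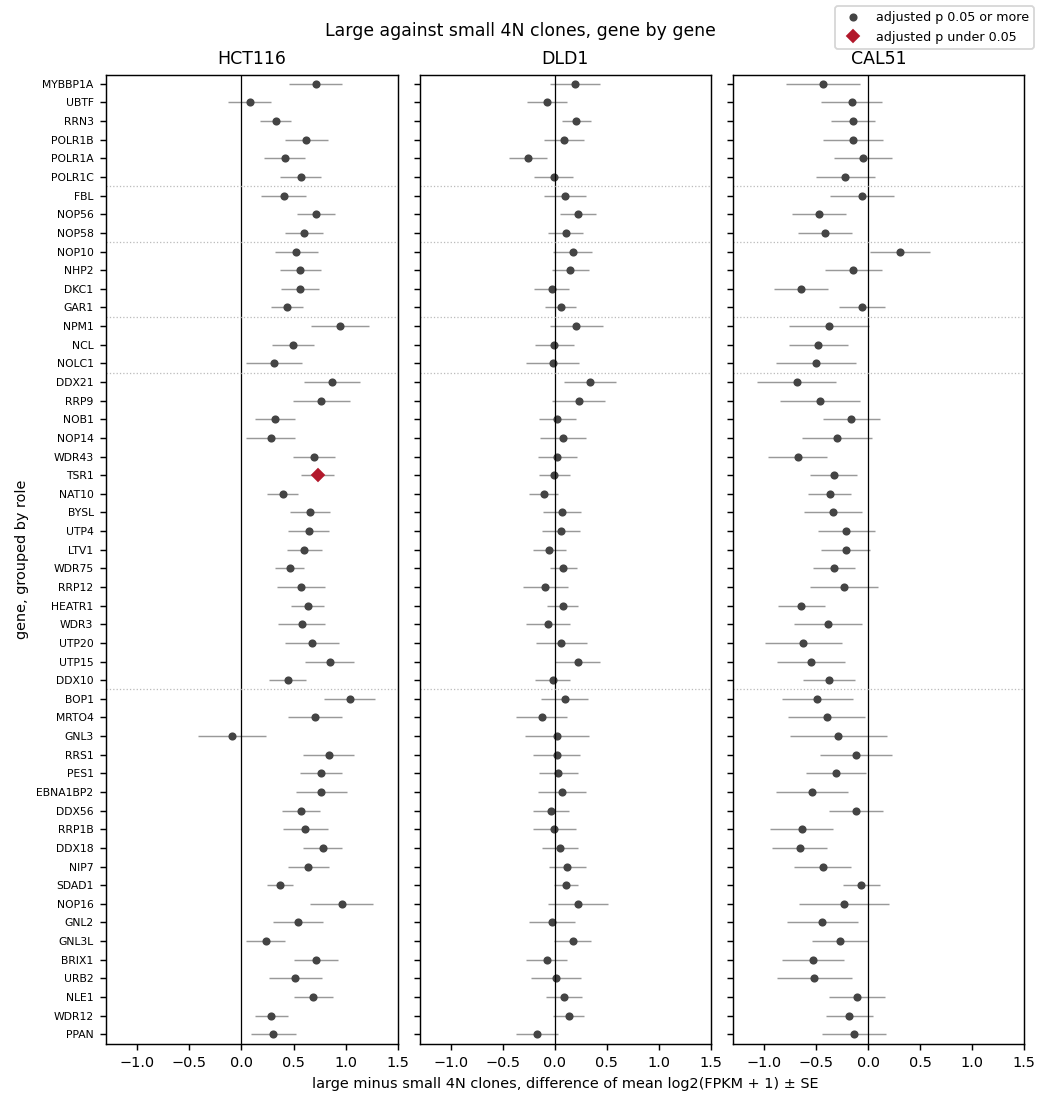
Difference of mean log2(FPKM + 1) between large and small 4N clones (horizontal axis) for each of the 52 genes, grouped by role, with SE bars from the limma fit; the red diamond marks the 1 gene past an adjusted p of 0.05. Points sit right of 0 for 51 genes in HCT116, on both sides in DLD1 and left of 0 for 51 genes in CAL51.

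Genes of the same pathway that were not members also stood higher in large HCT116 clones. Their values come from the same libraries as the module, and the lists were chosen with earlier results known, so they are not independent evidence. Of 39 further small-subunit factors tested, 39 had positive differences with a median of 0.47, and 2 rose, the methyltransferase EMG1 (0.95 ± 0.17, adjusted p = 0.0178) and KRR1 (0.82 ± 0.17, adjusted p = 0.0364). Of 45 further large-subunit factors, 45 were positive with a median of 0.46, and MAK16 rose (0.75 ± 0.15, adjusted p = 0.0264). Of the other RNA polymerase I subunits and factors 9 of 10 were positive with a median of 0.15, and POLR1E, a subunit of the enzyme, rose (0.97 ± 0.17, adjusted p = 0.0172). The polymerase III subunits had 12 of 14 positive with a median of 0.32 and none called. Of 17 targets of p53, the factor that slows growth after damage, 13 had negative differences with a median of -0.25 and none passed.

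Promoter sequences are shown because nearly all members stood on the same side in HCT116. Promoters from RefSeq on build GRCh38.p14, 300 bases around each gene's start, were matched for 45 of the 53 members, 54 promoters in all. The E-box CACGTG, the letters that MYC and its partners are known to bind, was present in 22 of 54 (40.7%), against 7.26% of all 35116 promoters and 9.3% of the 14477 promoters of tested genes. Its variant CACGCG, read on both strands with its reverse CGCGTG, was in 17 (31.5%), against 11.4% of all promoters and 17.2% of those of tested genes. The ETS-factor motif CCGGAAG, with its reverse CTTCCGG, was in 21 (38.9%), against 10.3% and 16.6%. The GC box GGGCGG (reverse CCGCCC) was in 39 (72.2%), against 45% and 66.9%, and CCAAT (reverse ATTGG) was in 22 (40.7%), against 34.6% and 34.4%. TATAAA (reverse TTTATA) was in 2 (3.7%), against 11.5% and 5.97%. No match of 1 motif overlapped a match of another in the members' promoters. These matches describe letters and do not show binding.

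The promoter of TSR1, the member called in HCT116, is printed with those of UTP20 and MRTO4, which were among those that differed most between lines, and of PES1, the partner of BOP1. They lie at chr17:2336408-2336707 (minus strand), chr12:101279855-101280154 (plus), chr1:19251555-19251854 (plus) and chr22:30591861-30592160 (minus). Capitals mark the E-box, its variant and the ETS motif. HEATR1 and NOP56, which ranked above PES1 between large and small HCT116 clones, are not printed. Their promoters held none of these motifs. BOP1 and DDX18, which also ranked above PES1, had no matched promoter.
TSR1: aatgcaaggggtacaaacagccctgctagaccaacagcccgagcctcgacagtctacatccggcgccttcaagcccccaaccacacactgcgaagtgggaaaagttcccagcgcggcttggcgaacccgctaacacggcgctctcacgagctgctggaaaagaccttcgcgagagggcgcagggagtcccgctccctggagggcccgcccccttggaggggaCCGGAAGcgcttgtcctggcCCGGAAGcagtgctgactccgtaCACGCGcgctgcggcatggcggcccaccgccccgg
UTP20: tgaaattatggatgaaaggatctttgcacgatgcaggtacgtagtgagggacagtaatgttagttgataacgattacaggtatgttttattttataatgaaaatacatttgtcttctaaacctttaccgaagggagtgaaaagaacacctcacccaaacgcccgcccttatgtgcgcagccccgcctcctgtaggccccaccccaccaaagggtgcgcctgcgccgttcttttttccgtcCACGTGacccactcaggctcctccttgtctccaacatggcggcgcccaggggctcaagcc
MRTO4: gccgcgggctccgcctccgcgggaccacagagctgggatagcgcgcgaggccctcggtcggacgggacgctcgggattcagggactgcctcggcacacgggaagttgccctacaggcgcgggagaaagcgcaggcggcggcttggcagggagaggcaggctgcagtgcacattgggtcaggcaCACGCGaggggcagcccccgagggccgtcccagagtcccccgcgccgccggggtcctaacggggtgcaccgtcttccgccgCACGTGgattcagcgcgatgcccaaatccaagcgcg
PES1: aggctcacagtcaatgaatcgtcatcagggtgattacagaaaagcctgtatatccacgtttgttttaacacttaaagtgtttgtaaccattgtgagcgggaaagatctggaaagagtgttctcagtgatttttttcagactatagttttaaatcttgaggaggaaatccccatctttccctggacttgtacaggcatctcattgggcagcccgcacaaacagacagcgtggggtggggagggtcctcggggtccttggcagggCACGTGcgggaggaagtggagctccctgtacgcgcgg
TSR1 held no CACGTG but 2 CCGGAAG, starting 28 and 8 bases before the start site, and 1 CACGCG downstream of it. UTP20 held 1 CACGTG, starting 10 bases before its start site. MRTO4 held 1 CACGTG starting 14 bases after the start and 1 CACGCG starting 67 bases before it, and PES1 held 1 CACGTG starting 13 bases after its start.

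In DLD1 no member passed between large and small 4N clones, where 0.472% of all tested genes were called. Of the 52, 34 had positive differences, with a median of 0.06 and a range of -0.25 to 0.34. None was below a p of 0.05 before adjustment, against 428 higher and 559 lower of the 14835 tested genes. The 6 members with the largest statistic were RRN3, which recruits polymerase I to rRNA genes, at 0.21 ± 0.14, POLR1A, its largest subunit, at -0.25 ± 0.18, the helicase DDX21 at 0.34 ± 0.25, NOP56 at 0.22 ± 0.17, UTP15 at 0.22 ± 0.22 and GNL3L at 0.17 ± 0.18, and the adjusted p of each was 1. These SEs came from 1 estimate of the spread shared by all lines. The pooled SD of the module level was 0.057 between DLD1 clones and 0.31 between HCT116 clones. Over the alternative settings the adjusted p of RRN3 went down to 0.228 (limma or voom), and no member was called. Every large clone exceeded every small clone for 4 members, MYBBP1A, RRN3, WDR75 and NIP7 (7.69%, against 5.28% of all genes). TSR1 had 37.9, 36.8, 35.4 and 33.4 FPKM in large DLD1 clones, against 37.5, 34.9 and 35.6 FPKM in small ones, and was the member with the narrowest span over the 10 libraries. MYC ran between 61.7 and 97.0 FPKM in large clones, against 63.3 to 114 FPKM in small ones.

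In CAL51 the sign was the opposite of that in HCT116, with 51 of 52 members lower in the large clones than in the single small clone, a median of -0.34, and no member called by limma, where 0.735% of all tested genes were called higher and 0.789% lower. Before adjustment 4 members, all lower, were below a p of 0.05, against 953 higher and 886 lower of the 14835 tested genes. The small clone has no replicate, and the fit assumes that it varies like the clones of other groups. Every large clone was below the small one for 29 members (55.8%), against 23.2% of all tested genes. HEATR1 had 9.56, 10.5 and 10.9 FPKM in large clones, against 16.6 FPKM in the small clone (-0.64 ± 0.23, adjusted p = 0.212). DDX18 had 17.3, 20.3 and 20.3 FPKM in large clones, against 30.9 FPKM in the small clone (-0.66 ± 0.26, adjusted p = 0.287). DKC1, the pseudouridine synthase, had a difference of -0.65 ± 0.26 (adjusted p = 0.289), the processome protein WDR43 one of -0.68 ± 0.28 (adjusted p = 0.322), RRP1B one of -0.64 ± 0.31 (adjusted p = 0.405) and DDX21 one of -0.69 ± 0.38 (adjusted p = 0.513). The single positive value was that of NOP10, a small core protein of the H/ACA particle, at 0.30, where large clone 1 had 183 FPKM and large clones 2 and 3 had 95.1 and 119 FPKM, against 103 FPKM in the small clone.

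The small CAL51 clone was not alone at the high end. The CAL51 2N clones differed from each other as much as the classes did, with 50 of 52 members higher in 2N clone 1 than in 2N clone 2. DDX18 had 27.3 FPKM in 2N clone 1 and 19.9 FPKM in 2N clone 2, and HEATR1 had 16.0 and 11.3 FPKM. As deposited, the small clone, 2N clone 1 and large clone 1 had the highest module level of the CAL51 libraries. They were also the 3 with the highest sum of 7 epithelial markers, 1224, 1264 and 3900 FPKM, against 206 to 484 FPKM in the other 4. They also held the most MYC, 43.1, 35.8 and 41.7 FPKM, against 16.7 to 25.0 FPKM in the others. MXD4 did not mirror the level as deposited. It had 14.4, 10.9 and 6.41 FPKM in large clones, against 2.95 FPKM in the small clone and 2.25 and 7.21 FPKM in 2N clones. Large clone 1, among the 3 high libraries, held the most MXD4 of the line. That ranking depended on scaling. With values scaled to a fixed sum per library, large clone 1 stood at 6.289, below large clone 3 (6.407), 2N clone 2 (6.376) and the parental library (6.385). The small clone (6.745) and 2N clone 1 (6.673) were still the highest. On that scale large clones 1 and 2, which held the most MXD4, had the lowest levels (6.289 and 6.257). Of the 11 MYC network genes, 5 had positive differences between large and small CAL51 clones, with a median of -0.01 and none called. Of the 7 epithelial markers 1 fell in the large clones by the test, KRT19. Of 5 mesenchymal markers CDH2 rose, and the list summed to 67.0 to 195 FPKM in large clones, against 40.4 FPKM in the small clone. Markers of blood, endothelial and stromal cells summed to 6.16 to 32.8 FPKM in large clones, against 1.39 FPKM in the small clone, with PDGFRB called higher and PTPRC, CD3E, CD14, PECAM1 and LUM under 1 FPKM in every CAL51 library. The part of these differences in the module's values was not tested. Large clone 1 was mixed, being the highest of the 7 CAL51 libraries for 17 members (28.2% of all genes) and the lowest for 14 (26.9% of all genes). In it the 26 members of 4653 bases or shorter had a median of 0.22 against the 2N clones and the 26 longer ones a median of -0.09, and over all genes the same split gave 0.12 and -0.09. In the small clone those medians were 0.26 and 0.29. The part of gene length in these values was not tested beyond that split.

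The wider lists, read in the same libraries, had the sign of the module in CAL51. Of the further small-subunit factors 35 of 39 were lower in large clones, with a median of -0.24, and of the further large-subunit factors 39 of 45, with a median of -0.29, and none was called. DDX52 (-0.43 ± 0.16, adjusted p = 0.226) and NOL8 (-0.54 ± 0.17, adjusted p = 0.146) led these lists. Of 17 p53 targets, 16 had positive differences, with a median of 0.42, and TP53I3 came nearest to the threshold (1.53 ± 0.38, adjusted p = 0.0546).

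The size contrast itself differed between lines for some members. The difference of large from small clones was compared between HCT116 and CAL51 in the same fit, where 0.795% of all tested genes were called higher in HCT116 and 0.741% lower. All 52 members had a higher value in HCT116 than in CAL51, with a median of 0.96, and 2 passed, HEATR1 (1.28 ± 0.28, adjusted p = 0.0313) and DDX18 (1.44 ± 0.32, adjusted p = 0.0344). WDR43 (adjusted p = 0.056), TSR1 (adjusted p = 0.0586), DKC1 (adjusted p = 0.0613) and NOP56 (adjusted p = 0.0672) followed. The count was 0 without HCT116 small clone 1, 1 without HCT116 large clone 1, 25 without HCT116 large clone 2, 6 without HCT116 small clone 3, 8 without CAL51 large clone 1 and 5 without either CAL51 2N clone. Without HCT116 large clone 3 it stayed at 2, but the median was 0.64. With both lines fitted alone, or with a replicate block, no member passed. Between HCT116 and DLD1 the median was 0.55 with 51 of 52 positive and none called (0.101% of all genes higher, 0.0539% lower). Below a p of 0.05 before adjustment were 19 members, against 753 higher and 601 lower of the 14835 tested genes. TSR1 led at 0.74 ± 0.22 (adjusted p = 0.314), ahead of DDX18, LTV1, BOP1, BRIX1 and PES1. Without HCT116 large clone 2, 2 members passed. Between DLD1 and CAL51 the median was 0.37 with none called (0.667% of all genes). Below a p of 0.05 before adjustment were 4 members, against 741 higher and 909 lower of the 14835 tested genes. The leading 6 were HEATR1, DDX18, DDX21, NOP56, WDR43 and DKC1, with HEATR1 at 0.72 ± 0.27 (adjusted p = 0.309).

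Averaged over the 3 lines, large and small clones showed no called member, where 0.398% of all genes were called. The median was 0.10, with 45 of 52 positive, and it was -0.02 without HCT116 large clone 3 and small clone 1. Below a p of 0.05 before adjustment was 1 member, against 645 higher and 770 lower of the 14835 tested genes. NOP10 led at 0.33 ± 0.13 (adjusted p = 0.421), and NLE1, SDAD1, NOP16, RRS1 and NHP2 followed with differences of 0.14 to 0.32.

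**Figure D4:**
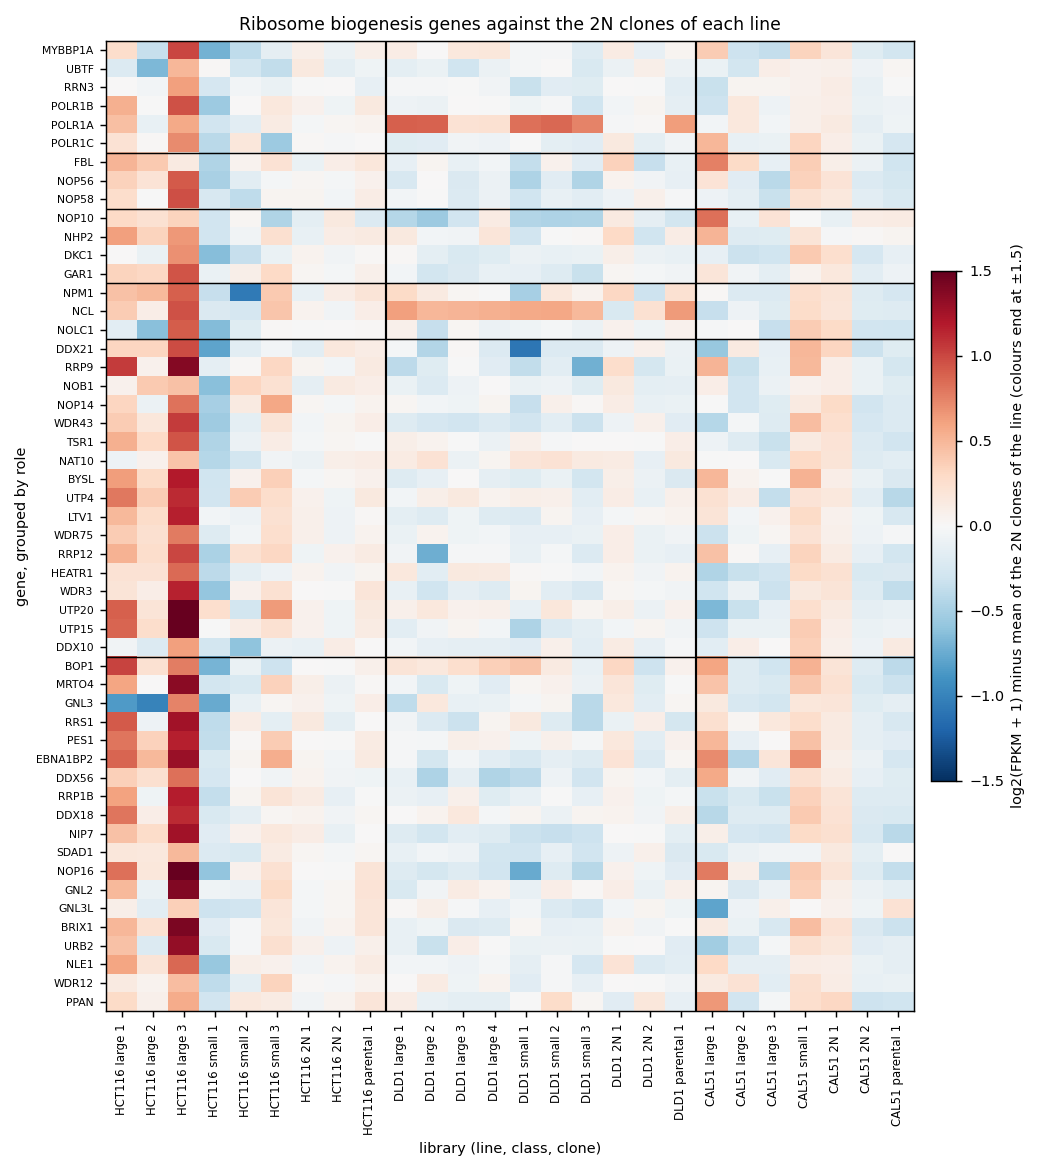
Log2(FPKM + 1) of each of the 52 genes (rows, grouped by role) minus the mean of the 2N clones of the same line, in each of the 26 libraries (columns, with large before small 4N clones, 2N clones and parental library within each line); red is higher and blue lower, and colours end at ±1.5. HCT116 large clone 3 is red for all 52 genes, DLD1 columns are pale apart from rows such as POLR1A and NCL, and the CAL51 small clone and 2N clone 1 are both red.

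Set against 2N clones, large 4N clones differ in ploidy and in labelled drug exposure as well as in size class. All 4N clones, large and small, had been exposed and no 2N clone is labelled so, and ploidy and drug cannot be told apart. The comparisons of large and of small clones share the same 2N clones. In HCT116 none of the 52 was called, where 0.917% of all tested genes were, 0.404% higher and 0.512% lower. Yet 50 differences were positive, with a median of 0.51. Below a p of 0.05 before adjustment were 29 members, against 1178 higher and 1192 lower of the 14835 tested genes. UTP15, a processome protein, led with 8.27, 5.05 and 15.8 FPKM in large clones, against 4.30 and 3.81 FPKM in 2N clones (0.96 ± 0.26, adjusted p = 0.085). UTP4, LTV1, PES1, TSR1 and DDX18 followed, with differences of 0.59 to 0.77 and adjusted p values of 0.101 to 0.12. Every large clone exceeded both 2N clones and the parental library for 27 members (51.9%), against 13.1% of all tested genes. Without large clone 2, 22 members were called, and with the parental library counted among the 2N libraries 12 were. In DLD1 the median was -0.08 as deposited but 0.07 with values scaled to a fixed sum per library (TPM), so its direction turned with the scaling, and 0 of 14835 genes were called. DLD1 members below a p of 0.05 before adjustment were 2, POLR1A (0.56 ± 0.21) and NCL, the abundant nucleolar protein nucleolin (0.54 ± 0.21). Of all tested genes, 176 higher and 268 lower were below that p. DDX56, NOP10, WDR43 and NIP7 followed with differences of -0.21 to -0.29. In CAL51 the median was -0.09 and none was called (0.465% of all genes). None was below a p of 0.05 before adjustment, against 622 higher and 588 lower of the 14835 tested genes. HEATR1 led at -0.36 ± 0.18 (adjusted p = 0.65), with NOP10 at 0.30, UTP20 at -0.37, DDX18 at -0.27, FBL at 0.31 and GNL3L at -0.26. Without CAL51 2N clone 1 that median was 0.09, and without DLD1 2N clone 1 the DLD1 median was 0.002.

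Between small 4N and 2N clones no member was called in any line, where the called share of all tested genes was 0.027% in HCT116, 0.337% in DLD1 and 0.148% in CAL51 (0.0472% higher). The members below a p of 0.05 before adjustment were 0 in HCT116, 2 in DLD1 and 0 in CAL51. Of all tested genes, 249 higher and 426 lower were in HCT116, 504 and 570 in DLD1, and 307 and 311 in CAL51. In HCT116 38 of 52 members were lower with a median of -0.10, and DKC1, DDX10, NAT10, MYBBP1A, BOP1 and POLR1C had the largest statistics, with differences of -0.25 to -0.41. In CAL51 50 of 52 were higher with a median of 0.28, led by EBNA1BP2 at 0.69 ± 0.37 and BYSL at 0.52 ± 0.29, then WDR43, DKC1, BRIX1 and BOP1 at 0.40 to 0.52. The small CAL51 clone exceeded all of the 2N and parental libraries for 38 members (73.1%, against 30.1% of all genes), and the median was 0.44 without 2N clone 1 and 0.12 without 2N clone 2. In DLD1 43 of 52 were lower, with a median of -0.11, which was 0.01 on the TPM scale and -0.01 without 2N clone 1. Every small DLD1 clone was below all 2N and parental libraries for 10 members (19.2%, against 8.24% of all genes), among them NOP56, NOP58, GAR1 and RRN3. Averaged over lines and both size classes, 4N and 2N clones gave a median of 0.06 with no member called (0.00674% of all genes). Below a p of 0.05 before adjustment were 2 members, against 336 higher and 406 lower of the 14835 tested genes. The 2 members were POLR1A at 0.28 ± 0.12 and NCL at 0.27 ± 0.12, ahead of PES1, EBNA1BP2, BYSL and UTP4. In each comparison of 4N clones in which limma called no member, voom on the recovered reads called none either, and it called none between large and small HCT116 clones.

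POLR1A stood apart from the module in DLD1. It had 17.4, 17.4, 10.5 and 10.6 FPKM in large clones, 16.6, 17.0 and 15.7 FPKM in small clones, 8.81 and 9.03 FPKM in 2N clones and 14.3 FPKM in the parental library. Large clones 3 and 4 and the 2N clones thus formed the low group, and the parental library lay nearer to the others. Small against 2N clones gave 0.81 ± 0.22 (adjusted p = 0.176). Its neighbours were the 10 genes on either side with a mean of at least 5 FPKM in DLD1. They had medians between -0.07 and 0.09 of their DLD1 mean (log2) in each library. POLR1A itself ran between -0.54 and 0.36, a look chosen after its values were seen. POLR1B, the second-largest subunit, had 16.5, 16.3, 17.5 and 17.4 FPKM in large clones, 16.6, 17.2 and 13.9 FPKM in small clones and 16.9 and 18.1 FPKM in 2N clones, so that the ratio of POLR1A to POLR1B in DLD1 ran between 0.50 and 1.12. NCL was low in the DLD1 2N clones, with 181 and 247 FPKM, but not in large clone 3 or 4 (303 and 307 FPKM) or in the parental library (329 FPKM), against 297 to 316 FPKM in small clones.

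More members were called between the 2N clones of different lines than between size classes, and most were higher in DLD1. The share called was likewise far larger over all genes, with 39.6% between HCT116 and DLD1, 40.1% between CAL51 and DLD1 and 45.4% between CAL51 and HCT116. The members called were 21, 8 and 9 of 52 in the same order. That was near the share of all genes for HCT116 against DLD1 and below it in both CAL51 pairs. By direction, only the members lower in HCT116 than in DLD1 exceeded the share of all genes. In HCT116 against DLD1, 20 members were lower and 1 higher, where 18.3% of all tested genes were called lower and 21.3% higher, and 48 of 52 had a negative difference with a median of -0.54. UTP20, the processome's large scaffold, had 3.22 and 2.84 FPKM in HCT116, against 13.6 and 11.98 FPKM in DLD1 (-1.78 ± 0.32, adjusted p = 0.000262). TSR1 had 19.0 and 19.9 FPKM in HCT116, against 35.5 and 35.4 FPKM in DLD1 (-0.83 ± 0.19, adjusted p = 0.00246). EBNA1BP2, a nucleolar scaffold of the large subunit, had 21.8 and 20.5 FPKM in HCT116, against 61.3 and 45.5 FPKM in DLD1 (-1.28 ± 0.30, adjusted p = 0.00259). GAR1, MRTO4, DDX18, NOP56, URB2, UTP15 and BYSL completed the 10 lower members of smallest adjusted p, with differences of -0.80 to -1.27. By role the fallen genes were 2 of 3 box C/D, 2 of 4 box H/ACA, 7 of 17 small-subunit and 9 of 19 large-subunit genes, with none among the scaffolds or the polymerase I genes.

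RRN3 was the gene called higher in HCT116, with 27.1 and 27.1 FPKM, against 16.8 and 16.7 FPKM in DLD1 (0.66 ± 0.18, adjusted p = 0.00777). Every HCT116 library, 4N clones included, held more RRN3 than any library of the other lines, the only member of which this was true (7.91% of all genes). The count of 21 was 9 without HCT116 2N clone 2, 9 without DLD1 2N clone 1 and 13 without DLD1 2N clone 2, and 33 with the parental libraries counted in.

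**Figure D5:**
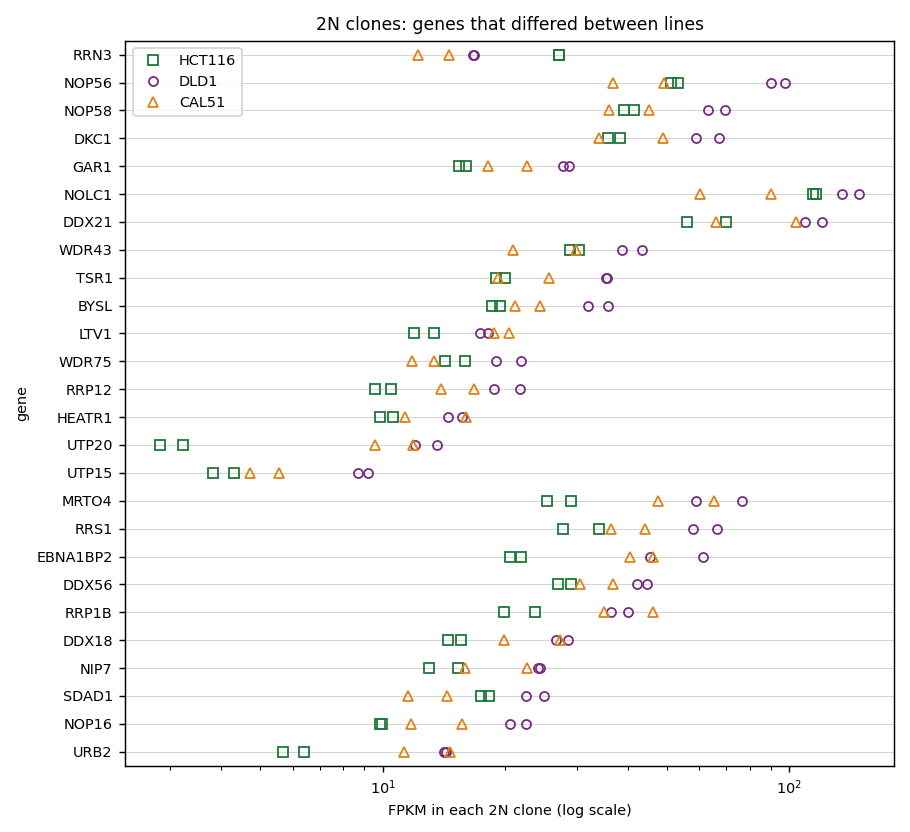
FPKM (horizontal axis, log scale) in each 2N clone of HCT116 (squares), DLD1 (circles) and CAL51 (triangles) for the 26 genes past an adjusted p of 0.05 in any pair of lines. DLD1 lies to the right for most genes, while RRN3 is highest in HCT116 and UTP20 is lowest there at 2.84 and 3.22 FPKM.

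In CAL51 against DLD1, 8 members were lower and none higher (18.8% and 21.2% of all tested genes), with a median of -0.36. SDAD1, a large-subunit export factor, had 14.4 and 11.6 FPKM in CAL51, against 22.5 and 25.0 FPKM in DLD1 (-0.83 ± 0.16, adjusted p = 0.000348). NOP56 had 49.0 and 36.9 FPKM in CAL51, against 97.8 and 90.3 FPKM in DLD1 (-1.13 ± 0.23, adjusted p = 0.00068). WDR75, TSR1, NOP58, WDR43, NOLC1 and DKC1 also fell, by differences of -0.61 to -0.93. Every CAL51 library held less SDAD1 than any library of the other lines, the only member of which this was true (8.04% of all genes). The count of 8 was 3 without either DLD1 2N clone, 2 without CAL51 2N clone 2 and 15 without HCT116 large clone 3.

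In CAL51 against HCT116, 7 members were higher and 2 lower (22.4% and 23% of all tested genes), with a median of 0.17. The higher ones were UTP20 (1.54 ± 0.32, adjusted p = 0.000702), EBNA1BP2, RRP1B, MRTO4, URB2, LTV1 and DDX18, with differences of 0.60 to 1.01 after UTP20. The lower ones were RRN3, with 14.6 and 12.2 FPKM in CAL51 against 27.1 and 27.1 FPKM in HCT116 (-0.97 ± 0.18, adjusted p = 0.000294), and SDAD1 (-0.44 ± 0.16, adjusted p = 0.0277). On the TPM scale the median of all genes was 0.29, the median member was 0.48 and 19 members were called. The count was 2 without HCT116 2N clone 2 and 3 without CAL51 2N clone 1.

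The most abundant members of each role show the levels behind these differences. NPM1, the histone and ribosome chaperone nucleophosmin, had 368, 380 and 506 FPKM in large HCT116 clones, against 213, 129 and 357 FPKM in small ones, and 472 to 581 FPKM in large DLD1 clones, against 337 to 532 FPKM in small ones. Its low value of 129 FPKM in HCT116 small clone 2 was the lowest of all 26 libraries. NCL had 201, 166 and 302 FPKM in large HCT116 clones, against 133, 130 and 206 FPKM in small ones. FBL, the methyltransferase of the C/D particle, had 125, 115 and 95.6 FPKM in large HCT116 clones, against 63.5, 90.6 and 102 FPKM in small ones, so that large clone 3, the highest library for 50 members, was the lowest large clone for FBL. Its highest values lay in CAL51, with 212, 152 and 114 FPKM in large clones, against 161 FPKM in the small clone. NOP56, a core protein of the same particle, had 66.7, 60.4 and 99.4 FPKM in large HCT116 clones, against 37.0, 46.6 and 50.9 FPKM in small ones. The ratio of FBL to NOP56, both per kilobase, had a median of 3.19 in CAL51, against 1.83 in HCT116 and 1.17 in DLD1. It was 0.962 in HCT116 large clone 3.

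NOP10 had 142, 135 and 145 FPKM in large HCT116 clones, against 94.0, 117 and 83.2 FPKM in small ones, and NHP2, a partner in the H/ACA particle, had 68.2, 55.9 and 70.1 FPKM, against 36.0, 42.6 and 52.4 FPKM. Neither overlapped between large and small clones. DDX21 had 78.6, 78.4 and 124 FPKM in large HCT116 clones, against 35.7, 55.9 and 60.6 FPKM in small ones, and in DLD1 it spanned the widest range of any member, down to 53.4 FPKM in small clone 1, against 84.4 to 117 FPKM in large clones. RRP9, a protein of the U3 snoRNP, had 83.2, 41.4 and 105 FPKM in large HCT116 clones, against 35.9, 39.9 and 49.5 FPKM in small ones, where large clone 2 overlapped. MRTO4, an assembly factor of the ribosomal stalk, had 41.4, 27.2 and 71.3 FPKM in large clones, against 22.2, 23.0 and 34.7 FPKM in small ones. MYBBP1A had 34.6, 22.4 and 58.5 FPKM in large clones, against 17.2, 21.8 and 26.2 FPKM in small ones. UBTF had 20.9, 14.9 and 34.7 FPKM in large clones, against 24.6, 19.9 and 18.6 FPKM in small ones, with the highest and the lowest of the 9 HCT116 libraries both among the large clones.

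Ratios of FPKM between partners in a complex differed between lines for some pairs and were close for others, and no test was run on them. BOP1 over PES1 had a median ratio of 1.81 in HCT116, 1.06 in DLD1 and 1.63 in CAL51. NOP10 over DKC1 was 3.56, 1.62 and 2.99 in the same lines, and NOP56 over NOP58 was 1.28, 1.34 and 1.04. GAR1 over DKC1 was 0.541, 0.434 and 0.534, and WDR12 over PES1 was 0.223, 0.142 and 0.240. Apart from FBL over NOP56, whose lowest CAL51 ratio of 2.70 exceeded the highest HCT116 ratio of 2.00, the ranges over libraries overlapped between HCT116 and CAL51, with BOP1 over PES1 at 1.21 to 2.27 in HCT116 and 1.37 to 1.81 in CAL51. The lowest NOP10 to DKC1 ratio in HCT116, 2.39, was in large clone 3.

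In some libraries the median over the genes of a chromosome was shifted, and members on it mostly differed from the other members in the direction of the shift. A single median cannot tell a shift of the whole chromosome from a shift of a part. The 53 genes lie on 19 chromosomes. For 15 pairs of a library and a chromosome that holds members, the median shift was at least 0.2. Shifts and the members' values beside them were taken against the mean of the line's 2N clones and parental library. In HCT116 large clone 3 chromosome 5 was shifted by 0.28. Its 5 members, NHP2, NPM1, UTP15, NOP16 and BRIX1, had a median of 1.35, where the other 47 had 0.91. In DLD1 small clone 1 chromosome 5 was shifted by -0.29 and the same 5 genes had a median of -0.45, where the others had -0.08. In DLD1 large clone 2 chromosome 10 was shifted by -0.33, and NOLC1, DDX21 and RRP12 had a median of -0.41, where the others had -0.05. DDX56 on chromosome 7 stood at -0.41 in DLD1 large clones 2 and 4, whose chromosome 7 was shifted by -0.30 and -0.29. In HCT116 small clone 3 chromosome 15 was shifted by -0.45 and NOP10 stood at -0.39. In CAL51 large clone 1 chromosome 19 was shifted by 0.27 and FBL and PPAN had a median of 0.81, where the others had 0.09. Both genes are shorter than 4653 bases, and in that library shorter genes stood higher over all genes (0.12, against -0.09 for longer ones). The part of length in this value was not tested. In CAL51 small clone 1 chromosome 4 was shifted by -0.20, and GAR1, NOP14 and SDAD1 had a median of 0.07, where the others had 0.35. In 2 pairs the members did not follow. In HCT116 large clone 1 chromosome 1 was shifted by -0.30, yet its 6 members had a median of 0.41, where the others had 0.37, and in HCT116 small clone 2 chromosome 15 was shifted by -0.23, yet NOP10 stood at 0.09, where the others had -0.08. With each chromosome's shift subtracted, the median of large against small HCT116 clones was 0.62 and 2 members passed.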

How the data were processed

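Polyadenylated RNA was sequenced with a directional dUTP library, per the labels' protocols. Reads were trimmed with fastp, aligned to GRCh38 with HISAT2 2.0.5 and counted with featureCounts 1.5.0-p3, and DESeq2 is also named, per the submitters' processing notes. The authors deposited FPKM per gene. Multiplied by gene length and divided by what 1 read is worth in that library, all FPKM came out whole within 0.01 reads.

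Differences were tested with limma 3.58.1 in R 4.3.3 on log2(FPKM + 1), which understates the change of low genes, with 12 group means, an intensity trend and 14 residual degrees of freedom. Values are differences ± SE. The p-values were two-sided and adjusted by Benjamini-Hochberg over 14835 genes at a threshold of 0.05, and the script was tested on simulated data. Members and lists were chosen with earlier results of these data known. Named genes were all called members (at most 10 each way), the 6 of largest statistic per comparison and the 2 most abundant per role. Replicate numbers were not taken to pair clones. Alternatives changed the pseudocount, filter, scaling, model, groups and clones used. The number of reads limits low genes most.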

Additional observations from a re-analysis of the deposited data

Results flagged for a closer look

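Among the large DLD1 clones, the only class of more than 3 libraries, 5 members had 1 clone set apart from the other 3 by most of the group's range. In large clone 1, DDX10 was high at 7.56 FPKM and PPAN was high at 5.67 FPKM. In large clone 2, HEATR1 was low at 13.4 FPKM, RRP12 was low at 11.8 FPKM and UTP20 was high at 14.3 FPKM. Of 53 such sets of 4 values, 5 were picked out, and chance picks out about 1 set in 20. RRP12 lies on chromosome 10, which was shifted by -0.33 in large clone 2.

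The size contrast differed between HCT116 and CAL51 by a test of the difference itself for DDX18, at 1.44 ± 0.32, and for HEATR1, at 1.28 ± 0.28. Over 22 clones left out in turn, the adjusted p (limma) ranged between 0.00127 and 0.0811 for DDX18 and between 0.0131 and 0.0742 for HEATR1, and over the other alternatives between 0.0139 and 0.236 and between 0.011 and 0.211.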

How the results depend on the processing

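Between large and small HCT116 clones 0 members were called with a pseudocount of 0.1, with no filter, with a mean of 1 FPKM required in each line, on the TPM scale, with voom, with no trend, with HCT116 fitted alone and without both large clone 3 and small clone 1 (median 0.247), 7 with parental counted as 2N and 2 relative to chromosome medians. Without both clones the median contrast was 0.199 for HCT116 minus DLD1 and 0.537 for HCT116 minus CAL51, where 0 were called, and counts were 1 for large HCT116 against 2N, 33 for HCT116 against DLD1 and 18 for CAL51 against DLD1. With parental counted as 2N, counts were 12 for large HCT116 against 2N, 11 for HCT116 minus CAL51, 33 for HCT116 against DLD1 and 20 for CAL51 against DLD1. On the TPM scale medians were 0.068 and 0.011 for large and small DLD1 against 2N, 0.494 for DLD1 minus CAL51 and 0.477 for CAL51 against HCT116 (19 called). TPM moved the median of all genes to -0.10 for large CAL51 against 2N, -0.12 for HCT116 against DLD1, 0.12 for CAL51 against DLD1 and 0.29 for CAL51 against HCT116. With voom 1 was called for HCT116 minus CAL51. With the lines fitted alone 0 were called there, 19 for CAL51 against DLD1 and 2 for CAL51 against HCT116. With no filter 5 were called for CAL51 against DLD1. The cause of these changes was not tested.

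Same-numbered clones correlated at 0.03 to 0.20 in HCT116, -0.06 to 0.09 in DLD1 and 0.18 to 0.21 in CAL51. Different-numbered clones correlated at -0.20 to 0.16, -0.12 to 0.12 and -0.21 to 0.07. Correlations with the 2 2N clones of a line were equal and opposite, so these values cannot settle whether clones were paired. The numbers were not taken to pair them. With a replicate block the median was -0.138 for large against small CAL51 clones and 0.214 for DLD1 minus CAL51, and counts were 0 for HCT116 minus CAL51 and 5 for CAL51 against DLD1.

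With 1 clone left out, counts ran 0 to 29 for large against small HCT116 (median 0.357 to 0.797), 0 to 22 for large HCT116 against 2N (0.278 to 0.66), 0 to 2 for HCT116 minus DLD1 (0.329 to 0.76), 0 to 25 for HCT116 minus CAL51 (0.644 to 1.161), 9 to 28 for HCT116 against DLD1 (-0.61 to -0.483), 2 to 15 for CAL51 against DLD1 (-0.522 to -0.214) and 2 to 10 for CAL51 against HCT116 (0.028 to 0.354). Medians ran 0.002 to 0.078 for large against small DLD1, -0.409 to -0.289 for CAL51, 0.027 to 0.16 for their mean over lines, -0.133 to 0.002 and -0.18 to -0.011 for large and small DLD1 against 2N, -0.2 to 0.088 and 0.12 to 0.439 for large and small CAL51 against 2N, -0.181 to 0.076 for small HCT116 against 2N, 0.003 to 0.119 for 4N against 2N and 0.338 to 0.427 for DLD1 minus CAL51. GNL3L, large CAL51 against 2N, ran -0.431 to 0.003, with the upper value without large clone 1. The small CAL51 clone could not be left out. Of the counts, medians and ranges, 378 stayed close to those reported and 35 moved over the other settings. Over left-out clones 703 stayed close and 45 moved. Close meant a shift under the pooled SD between clones, or a count of similar size. A clone outside the compared classes cannot move a median, so many of these 703 were fixed in advance. Of the values of named genes, 38 over the other settings and 61 over left-out clones lost their call, 18 and 32 gained one, and 1 changed sign.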
